A study of Mus musculus with 8 samples.

Results

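The aryl hydrocarbon receptor (AhR) pathway is described here through 8 genes, chosen by exact match of their symbols to the gene names of the deposited count table: Ahr, Ahrr, Arnt, Tiparp, Cyp1a1, Cyp1b1, Aldh3a1 and Ugt1a6a. Each symbol matched 1 of the 21899 genes in the table. The cells were mesenchymal stem cells of mouse femoral bone marrow, stromal progenitors of bone, fat and cartilage cells. The EA group had 4 libraries from cells exposed for 48 h to ellagic acid at 10 µM, a polyphenol of fruits and nuts, and the control group had 4 libraries from cells given DMSO, its solvent, for the same time. All were poly(A) RNA libraries. The labels give no strain, age or sex. They also leave unsaid whether each library had its own animal or culture, so a p-value here reflects the spread of these 8 libraries alone, and that spread may be technical.

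The AhR is a ligand-activated transcription factor of the bHLH-PAS family. Without ligand it sits in the cytosol in a complex with HSP90, and after binding an aromatic ligand it enters the nucleus, pairs with ARNT and binds DNA at xenobiotic response elements with the core GCGTG. Its classic targets are enzymes that oxidise and conjugate foreign compounds, and 2 of its target genes, Ahrr and Tiparp, encode proteins that restrain the receptor. In marrow stroma the receptor has been studied mainly with environmental pollutants and bone cell differentiation.

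Promoter windows of 4 genes that carry the core motif are shown for the contrast the results turn on: the P450 genes Cyp1a1 and Cyp1b1, which moved in opposite directions, and the feedback genes Tiparp and Ahrr. Each window holds 300 bases in the direction of the gene, 250 before the RefSeq start site and 50 after it, from RefSeq on build GRCm38.p6, whereas the count table uses GRCm39. Capitals mark GCGTG or, on the other strand, CACGC.
Cyp1a1, chr9:57697363-57697662, plus strand: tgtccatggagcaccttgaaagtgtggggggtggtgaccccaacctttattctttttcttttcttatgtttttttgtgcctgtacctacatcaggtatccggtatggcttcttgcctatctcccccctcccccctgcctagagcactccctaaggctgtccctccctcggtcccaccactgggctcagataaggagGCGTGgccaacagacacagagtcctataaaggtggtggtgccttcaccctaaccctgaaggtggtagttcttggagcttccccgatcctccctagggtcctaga
Cyp1b1, chr17:79715012-79715311, minus strand: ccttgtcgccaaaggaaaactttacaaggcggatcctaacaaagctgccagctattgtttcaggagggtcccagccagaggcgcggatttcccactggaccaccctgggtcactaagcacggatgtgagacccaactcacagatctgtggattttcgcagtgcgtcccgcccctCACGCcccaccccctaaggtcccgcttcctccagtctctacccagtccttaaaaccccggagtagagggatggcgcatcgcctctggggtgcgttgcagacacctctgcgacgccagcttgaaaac
Tiparp, chr3:65528197-65528496, plus strand: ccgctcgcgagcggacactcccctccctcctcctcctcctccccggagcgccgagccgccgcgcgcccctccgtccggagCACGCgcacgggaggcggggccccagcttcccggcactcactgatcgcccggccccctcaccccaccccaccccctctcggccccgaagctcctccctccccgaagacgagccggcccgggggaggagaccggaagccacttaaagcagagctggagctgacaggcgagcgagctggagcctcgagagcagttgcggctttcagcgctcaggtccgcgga
Ahrr, chr13:74292282-74292581, minus strand: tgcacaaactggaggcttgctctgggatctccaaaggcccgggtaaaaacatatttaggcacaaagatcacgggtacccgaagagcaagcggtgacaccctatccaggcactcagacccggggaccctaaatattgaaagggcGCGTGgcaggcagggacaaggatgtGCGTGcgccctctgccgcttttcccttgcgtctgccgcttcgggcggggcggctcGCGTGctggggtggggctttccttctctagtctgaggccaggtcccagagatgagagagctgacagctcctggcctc

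The RefSeq promoter table held windows for 6 of the 8 genes: these 4, Arnt and Ugt1a6a. On both strands, Ahrr had 3 matches to GCGTG, Cyp1a1, Cyp1b1, Tiparp and Arnt had 1 each, and Ugt1a6a had 0. Of all 32851 windows of the same length, 32.4% held at least 1 match. The longer form TNGCGTG, which contains GCGTG, was found in Ahrr alone among the 6, and in 5.07% of all windows. A match is a string of letters in this window and not a binding site.

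Total counts were 14112519 to 17390200 reads per EA library and 14654286 to 16637984 per control library. Summed over 12 stromal markers, the level was 21259 to 22199 CPM (reads of a gene relative to the scaled library total) in EA and 15150 to 17349 CPM in control. Col1a1 and Col1a2 made up most of this sum, with 412433 and 587438 reads in EA and 394937 and 554422 in control. The gap between the groups in this sum rests largely on the scaling factors given below. Of these markers 7 were called higher and 3 lower, and Thy1 had 7 reads in EA and 12 in control. The macrophage sum was 60.3 to 64.4 CPM in EA and 60.6 to 75.5 CPM in control, with 3 of 12 markers tested, 1 higher and 1 lower. Of the macrophage markers, Itgam and Tyrobp had 0 reads each in EA and 1 each in control. Others on that list had more, in EA and control in turn: Lyz2 2830 and 2411 reads, Cd14 533 and 2391, and Cd68 58 and 97. None of the 8 endothelial and 5 B and plasma cell markers had enough reads to be tested. Of 6 epithelial markers 1 was tested and called higher, and of 7 adipocyte markers 3 were tested, 2 higher and 1 lower. The part of these cell types in the results below was not tested. Reads were scaled by trimmed mean of M values (TMM), with factors of 0.878 to 0.885 in EA and 1.13 to 1.14 in control. Dropping these factors moves the median over the tested genes by −0.36 on the log2 scale, and upper-quartile factors move it by −0.16, so every change below is relative to TMM scaling, and the effect of library totals is given where it matters. Genes were called at an adjusted p under 0.05 in edgeR's quasi-likelihood test with Benjamini-Hochberg adjustment over 11777 tested genes. This called 67.2% of them, 33.1% higher and 34.2% lower in EA, and with library totals alone 1940 were higher and 7196 lower, 16.5% and 61.1%.

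Cells given ellagic acid held little receptor transcript. Ahr fell 13.4-fold, Cyp1a1 fell 3.35-fold and Aldh3a1 fell 2.04-fold, while Cyp1b1 rose 2.03-fold and Tiparp rose 1.75-fold. Arnt fell by less, 1.18-fold. The repressor gene Ahrr and the conjugating enzyme gene Ugt1a6a were called lower from few reads. In all, 2 of the 8 genes were called higher and 6 lower, beside 67.2% of all tested genes called in either direction. Ahrr and Ugt1a6a reached the count filter only through the control libraries, where they are higher, so their calls add nothing to that count. Of the other 6, which passed the filter in both groups, 2 were higher and 4 lower. In each of the 6 genes that passed the filter in both groups, the EA and control libraries did not overlap, as in 60.6% of all tested genes. Ahrr and Ugt1a6a did not overlap either. On library totals, the scale of the filter, this follows from the way they passed it, so it adds no support. In these bulk samples fewer cells expressing a gene and less RNA per cell cannot be told apart.

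**Figure D1:**
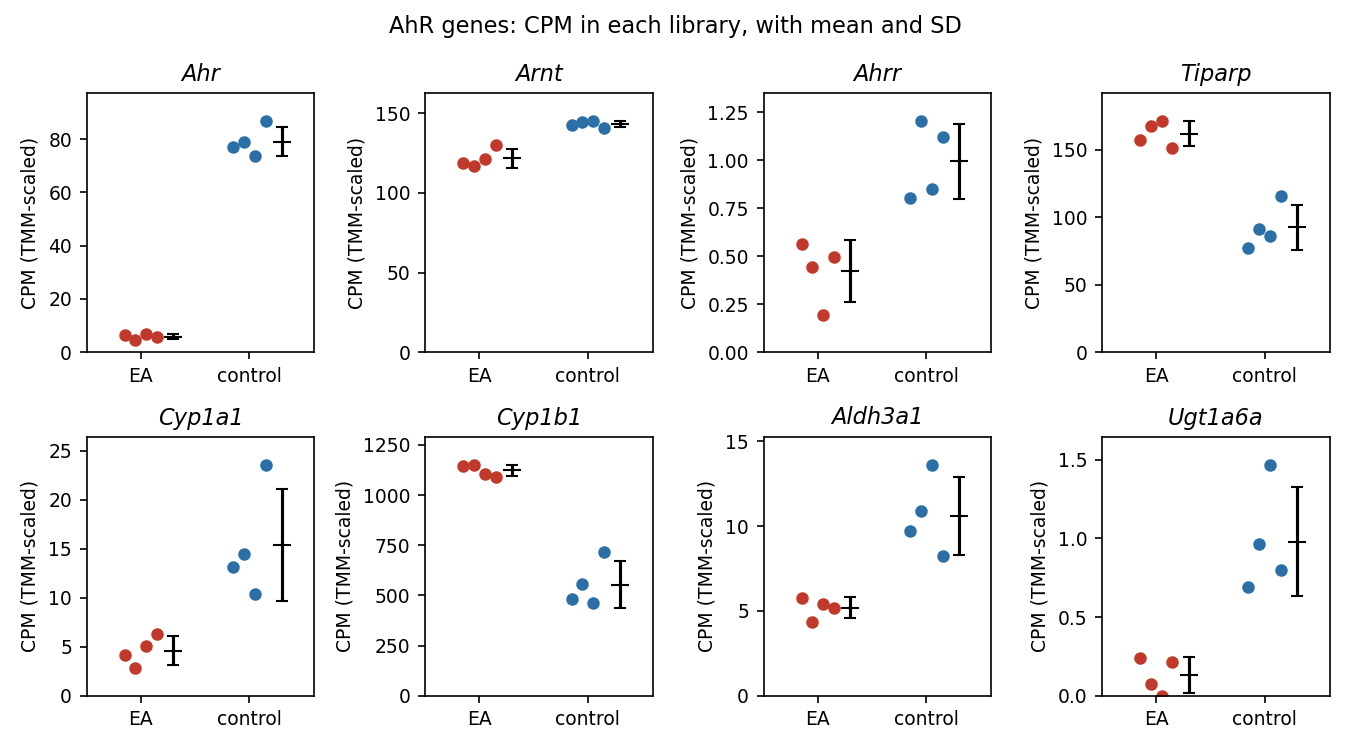
CPM after TMM scaling of the 8 AhR genes in each library (points) with the group mean and SD (black), EA left and control right, each axis from 0. Ahr lies between 4.71 and 6.89 CPM in EA and between 73.6 and 86.7 CPM in control, and Cyp1b1 and Tiparp are the genes with all EA libraries above the control libraries.

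The receptor gene itself (chromosome 12, 35547973 to 35585037, build GRCm39, minus strand, ENSMUSG00000019256) showed the largest change of the 8 under TMM scaling. The 4 EA libraries had 79, 64, 106 and 78 Ahr reads, against 1343, 1310, 1302 and 1626 reads in the control libraries. Scaled, this was 6.35, 4.71, 6.89 and 5.55 CPM in EA, against 77.0, 78.8, 73.6 and 86.7 CPM in control. Every EA library lay far under every control library, and the spread within a group was small beside the gap, with a coefficient of variation of 16.2% in EA and 7.02% in control. The log2 fold change of Ahr was −3.74 ± 0.10 (SE, adjusted p = 1.57e-17, edgeR). Of the 11777 tested genes, 17 had a more negative log2 fold change. With library totals alone the log2 fold change of Ahr was −4.11.

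Arnt, the nuclear partner without which the AhR does not bind its response elements (chromosome 3, 95341699 to 95404551, plus strand), changed little beside Ahr. It measured 119, 117, 121 and 130 CPM in the EA libraries and 143, 144, 145 and 141 CPM in the control libraries. The groups were separate but close, and the log2 fold change of Arnt was −0.24 ± 0.06 (SE, adjusted p = 0.000871, edgeR). With library totals alone it was −0.60, in the same direction. Within a library the log2 ratio of Ahr to Arnt reads, which does not depend on scaling between libraries, averaged −4.38 ± 0.241 in EA and −0.86 ± 0.117 in control (SD, n = 4 each). That difference of −3.52 had an exact two-sided permutation p of 0.0286, the smallest that 70 assignments allow. Its adjusted p was 0.0714 over 10 measures, so it does not pass the correction. The gap in Ahr was far wider than the range of Arnt, so these ratios had to separate and the p adds no support.

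The P450 enzymes of the CYP1 family moved apart. Cyp1a1, which encodes the inducible oxidase of polycyclic aromatic hydrocarbons and is the usual readout of the receptor (chromosome 9, 57595211 to 57611107), had 51, 38, 78 and 89 reads in EA and 229, 240, 183 and 442 reads in control. In CPM it was 4.10, 2.80, 5.07 and 6.33 in EA, against 13.1, 14.4, 10.3 and 23.6 in control. The groups did not overlap, although control library 4 stood well above the other control libraries. The log2 fold change of Cyp1a1 was −1.74 ± 0.30 (SE, adjusted p = 0.000518, edgeR) and without control library 4 it was −1.45. Cyp1b1, which oxidises steroid hormones as well as aromatic compounds and is the CYP1 form of mesenchymal tissues (chromosome 17, 80008966 to 80022490), had 1143, 1152, 1106 and 1092 CPM in EA and 482, 557, 460 and 716 CPM in control. The EA libraries lay close together, with a coefficient of variation of 2.57%, and all exceeded the control libraries, whose coefficient was 20.9%. The log2 fold change of Cyp1b1 was 1.02 ± 0.12 (SE, adjusted p = 3.71e-05, edgeR), and with library totals alone it was 0.66.

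Their ratio within a library is given as a description, with no test, since every EA library was higher in Cyp1b1 and lower in Cyp1a1 and the ratios had to separate. The log2 ratio of Cyp1b1 to Cyp1a1 reads was 8.11, 8.67, 7.76 and 7.42 in the EA libraries, against 5.19, 5.27, 5.47 and 4.92 in the control libraries. The means differed by 2.78. The log2 ratio of Tiparp to Cyp1a1 averaged 5.19 ± 0.545 in EA and 2.64 ± 0.317 in control (SD, n = 4 each), a difference of 2.56, and it too had to separate, as Tiparp was higher in every EA library.

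**Figure D2:**
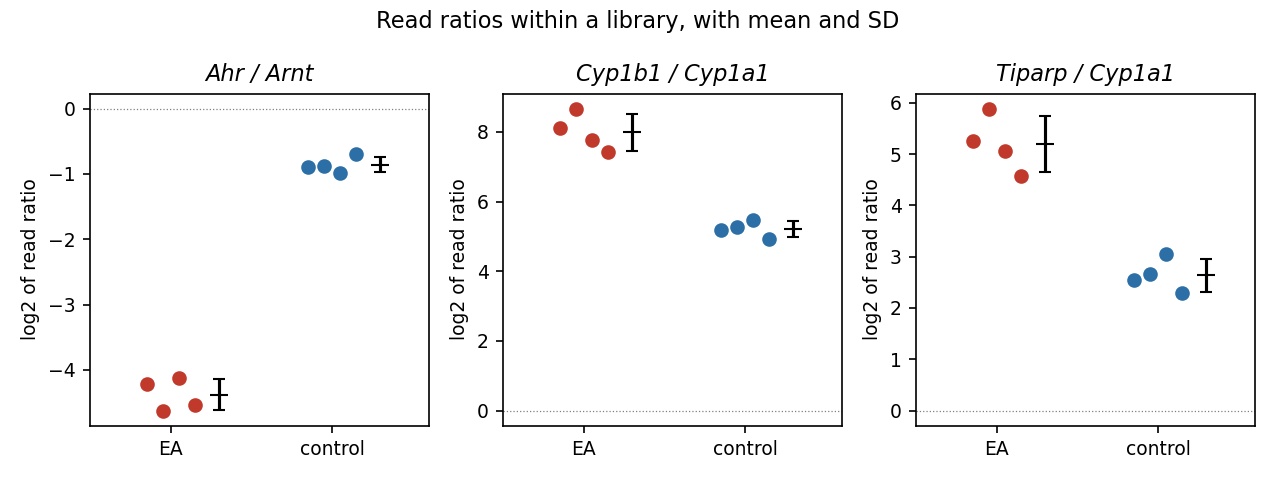
Log2 ratio of read counts of paired AhR genes within each library (points), with the mean and SD (black), EA left and control right. The Ahr to Arnt ratio is lower in all EA libraries, and the Cyp1b1 to Cyp1a1 and Tiparp to Cyp1a1 ratios are higher, with no overlap between groups.

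Of the feedback genes, Tiparp rose. It encodes PARP7, an enzyme that attaches single ADP-ribose units to the AhR and promotes its breakdown (chromosome 3, 65435831 to 65462939). Tiparp measured 157, 168, 171 and 151 CPM in EA and 77.1, 91.1, 86.1 and 115 CPM in control. Again control library 4 was the highest control, and it stayed under all EA libraries. With library totals alone this gap was narrow, at 130 CPM in control library 4 and 133 CPM in EA library 4. The log2 fold change of Tiparp was 0.81 ± 0.10 (SE, adjusted p = 3.95e-06, edgeR), and with library totals alone it was 0.45 and still called. Ahrr encodes a repressor that competes with the receptor for ARNT (chromosome 13, 74359237 to 74440450). It had few reads in both groups, with 7, 6, 3 and 7 reads in EA and 14, 20, 15 and 21 reads in control. Pooled over libraries, its level in EA was 0.418 times that in control, with a counting interval of 0.249 to 0.678 (95%, exact, counting error only). The fitted log2 fold change of Ahrr was −1.24 ± 0.40 (SE, adjusted p = 0.00951, edgeR). As Ahrr reached the count filter only through the control libraries, where it is higher, this p adds no support.

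Aldh3a1 encodes an aldehyde dehydrogenase that detoxifies aldehydes of lipid peroxidation (chromosome 11, 61098363 to 61109247). It had 72, 59, 83 and 73 reads in EA and 169, 181, 241 and 154 reads in control, or 5.18 ± 0.610 CPM in EA and 10.6 ± 2.29 CPM in control (SD, n = 4 each). All EA libraries were lower, and the log2 fold change of Aldh3a1 was −1.03 ± 0.16 (SE, adjusted p = 9.71e-06, edgeR). Ugt1a6a encodes a glucuronosyltransferase that conjugates small phenols (chromosome 1, 88062531 to 88146719). It had 3, 1, 0 and 3 reads in EA and 12, 16, 26 and 15 reads in control. The 0 reads of EA library 3 allow a level of up to 0.195 CPM. Pooled, the level in EA was 0.129 times that in control, with a counting interval of 0.050 to 0.280 (95%, exact). The fitted log2 fold change of Ugt1a6a was −2.88 ± 0.58 (SE, adjusted p = 0.000183, edgeR). Ugt1a6a reached the count filter only through the control libraries, where it is higher, so this p adds no support.

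The Ugt1a6a value is uncertain, since the UGT1A genes are spliced from separate first exons to shared last exons. In GENCODE mouse release 21, 30.4% of the exon bases of Ugt1a6a are also exon bases of Ugt1a6b, and 50.3% are exon bases of Ugt1a7c, and how the authors assigned such reads is not given in the sources used here. Ugt1a7c was called higher, with a log2 fold change of 1.04 (adjusted p = 0.000220, edgeR). Ugt1a6b had a log2 fold change of 0.89 (adjusted p = 0.0148, edgeR) with overlapping groups. Its call was lost in several settings, among them library totals alone (0.53, adjusted p = 0.123, edgeR) and without control library 4 (0.68, adjusted p = 0.0547, edgeR). Summed over the 9 UGT1A genes of the table, the level was 6.59 ± 0.408 CPM in EA and 4.49 ± 0.658 CPM in control (SD, n = 4 each). The summed level was thus not lower in EA, unlike that of Ugt1a6a.

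**Figure D3:**
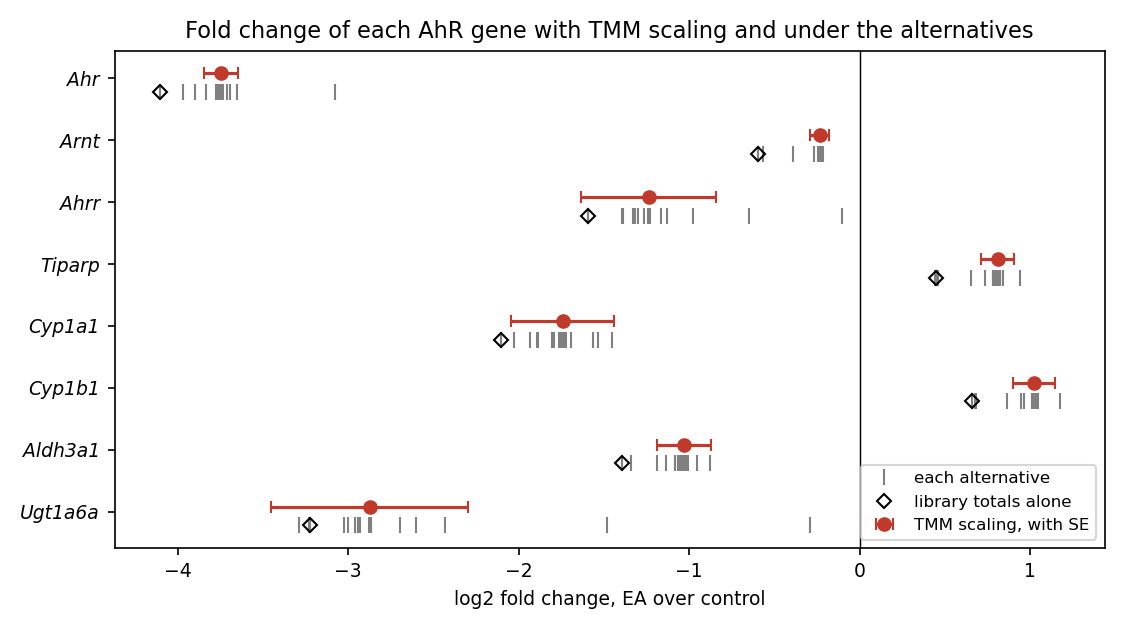
Log2 fold change of EA over control for the 8 AhR genes with TMM scaling (red, with SE) and under each of 19 alternatives (grey), with library totals alone as open diamonds. No gene crosses 0, and the values of Ahrr and Ugt1a6a nearest to 0 come from log2(FPKM + 1), where both lie far under the added 1.

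Levels of different genes are compared on the authors' FPKM, a fragment count divided by gene length and library total, without TMM factors. In EA the order was Cyp1b1 at 169 ± 4.58 FPKM, Tiparp at 32.7 ± 1.96, Arnt at 13.4 ± 0.606, Aldh3a1 at 2.35 ± 0.277, Cyp1a1 at 1.45 ± 0.470, Ahr at 0.840 ± 0.138, Ahrr at 0.0396 ± 0.0149 and Ugt1a6a at 0.0269 ± 0.0234 (SD, n = 4). In control Cyp1b1 also led with 107 ± 22.05 FPKM, followed by Tiparp at 24.0 ± 4.19, Arnt at 20.3 ± 0.376, Ahr at 14.5 ± 0.956, Cyp1a1 at 6.24 ± 2.30, Aldh3a1 at 6.19 ± 1.37, Ugt1a6a at 0.258 ± 0.0924 and Ahrr at 0.119 ± 0.0236 (SD, n = 4). Neighbours whose libraries overlapped in EA were Aldh3a1 and Cyp1a1, Cyp1a1 and Ahr, and Ahrr and Ugt1a6a, and in control Tiparp and Arnt, and Cyp1a1 and Aldh3a1. Ahr thus stood at rank 6 of the 8 in EA and at rank 4 in control. Reads of the 8 genes together made up 0.125 ± 0.00248% of a library in EA and 0.102 ± 0.0154% in control, most of them from Cyp1b1 (exact two-sided permutation p = 0.0571, adjusted p = 0.0952).

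Control library 4 differed from the other control libraries in several of these genes. Its level was 1.86 times their mean for Cyp1a1, 1.43 times for Cyp1b1, 1.36 times for Tiparp and 1.13 times for Ahr, but 0.720 times for Aldh3a1 and 0.977 times for Arnt. The same library had the lowest sum of macrophage markers among controls, at 60.6 CPM against 74.0 to 75.5 CPM in the others, a sum made up mainly of Cd14 and Lyz2, and the part of this in the AhR genes was not tested. Without control library 4 the log2 fold change of Cyp1b1 was 1.17, that of Tiparp 0.94 and that of Ahr −3.69, each called as before. The 3 tested genes whose log2 CPM over the 8 libraries was most like that of Cyp1a1 by Pearson r were Acp1, Uggt1 and Thnsl2, with r of 0.995, 0.994 and 0.994. For Cyp1b1 they were Map1b, 4930523C07Rik and Etf1, with r of 0.996, 0.995 and 0.995. With 10788 genes compared over libraries that share a group difference, these are descriptions.

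Around the receptor, 32 genes of its cytosolic complex, its partners and its co-regulators were listed, of which 29 were tested. There 10 were higher and 9 lower, 65.5% called beside 67.2% of all tested genes, with a median log2 fold change of 0.07 beside −0.02 over all tested genes. With library totals alone 6 were higher and 19 lower. Hif3a, 1 of the 10, reached the count filter only through the EA libraries and so had to be higher, and of the other 28 genes 9 were higher and 9 lower. Ddb1, an adaptor of CUL4 ubiquitin ligases, rose 2.77-fold, to 2703 ± 97.5 CPM in EA against 974 ± 22.6 CPM in control. Hif1a, the hypoxia factor that also pairs with ARNT, rose 1.63-fold, with 401 ± 9.75 CPM in EA and 246 ± 25.7 CPM in control. Arnt2, the ARNT paralog, fell 2.73-fold to 2.66 ± 0.688 CPM in EA, against 7.20 ± 0.833 CPM in control. Relb, an NF-kB subunit that can pair with the AhR, fell 1.89-fold and the deacetylase gene Hdac4 fell 1.36-fold.

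Of 26 other reported AhR targets 14 were tested, with 6 higher and 6 lower, 85.7% called beside 67.2% of all tested genes, and a median of 0.16, and with library totals alone 3 were higher and 7 lower. Hes1 reached the count filter only through the EA libraries, and of the other 13 genes 5 were higher and 6 lower. Nedd9, a scaffold protein of focal adhesions, rose 8.56-fold, with 133 ± 5.50 CPM in EA and 15.5 ± 2.22 CPM in control. Fgf21, a metabolic hormone, was 1.46-fold higher (adjusted p = 0.0186, edgeR), but its groups overlapped and with library totals alone it was not called, at a log2 fold change of 0.19. Its call was also lost without EA library 4, control library 2 or control library 3. The cytokine gene Il6 fell 2.30-fold to 12.3 ± 1.92 CPM in EA, against 28.3 ± 3.66 CPM in control. Ereg, an EGF receptor ligand, fell 1.79-fold and Nfe2l2, which encodes NRF2, fell 1.52-fold. Cyp1a2, the third CYP1 family gene, had 13 reads over all 8 libraries and was not tested.

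Enzymes and carriers of tryptophan, whose breakdown products can activate the AhR, were 10 tested of 21 listed, with 3 higher, 4 lower, 70% called beside 67.2% of all tested genes, and a median of −0.06. With library totals alone 2 were higher and 6 lower. The enzymes that open this route were scarce, with 4 reads of Ido1, 116 of Ido2 and 41 of Tdo2 over all libraries, none tested. Kyat1, a kynurenine aminotransferase, rose 2.76-fold to 27.2 ± 4.501 CPM in EA against 9.86 ± 1.09 CPM in control, whereas Kyat3 was 1.56-fold lower with overlapping groups (adjusted p = 0.0269, edgeR). Ddc, the decarboxylase of aromatic amino acids, had 4.15 ± 0.616 CPM in EA and 0.189 ± 0.157 CPM in control. It reached the count filter only through the EA libraries and so had to be higher, and of the other 9 genes 2 were higher and 4 lower. Afmid, which makes kynurenine, fell 1.52-fold, and Got2 fell 1.32-fold. The call of Kyat3 was lost without EA library 1, EA library 2 or control library 2, and that of Afmid without EA library 2. Slc3a2, a subunit of amino acid carriers, was 1.21-fold higher with TMM scaling, and its log2 fold change turned to −0.089 with library totals alone and its call was lost with upper-quartile factors.

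Redox partners and relatives of the P450 and ALDH enzymes gave 8 higher and 6 lower of 24 tested, 58.3% called beside 67.2% of all tested genes, with a median of 0.08, and 4 higher and 15 lower with library totals alone. Por, the electron donor of microsomal P450 enzymes, was not called (log2 fold change 0.16 ± 0.07, SE, adjusted p = 0.0709, edgeR). Aldh1a1, which makes retinoic acid, rose 39.4-fold, with 144 ± 18.5 CPM in EA and 3.64 ± 0.725 CPM in control. Cyp26b1, which breaks retinoic acid down, rose 5.43-fold, with 64.4 ± 2.90 CPM in EA and 11.8 ± 0.747 CPM in control. Aldh4a1, of proline breakdown, rose 1.69-fold. Aldh18a1, of proline synthesis, fell 1.95-fold, the oxysterol hydroxylase gene Cyp7b1 fell 1.83-fold and Cyb5r1 fell 1.68-fold.

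Tiparp is one of the mono-ADP-ribosyltransferases. All 21 other listed ADP-ribosyltransferases and ADP-ribose hydrolases were tested, and 13 were lower and 1 higher, with a median of −0.33. The 66.7% called lie near the 67.2% of all tested genes, of which 34.2% were lower. With library totals alone all 21 were called lower, beside 61.1% of all tested genes. Parp14, a macrodomain protein of the interferon response, fell 2.03-fold to 17.6 ± 1.94 CPM in EA, against 35.7 ± 3.36 CPM in control. Macrod1, which removes single ADP-ribose units, fell 1.68-fold and Parp10 fell 1.599-fold. The one higher gene, Parp3, had a log2 fold change of 0.19 ± 0.07 (SE, adjusted p = 0.0223, edgeR), which turned to −0.17 with library totals alone and was no longer called without EA library 2, EA library 3 or control library 4.

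**Figure D4:**
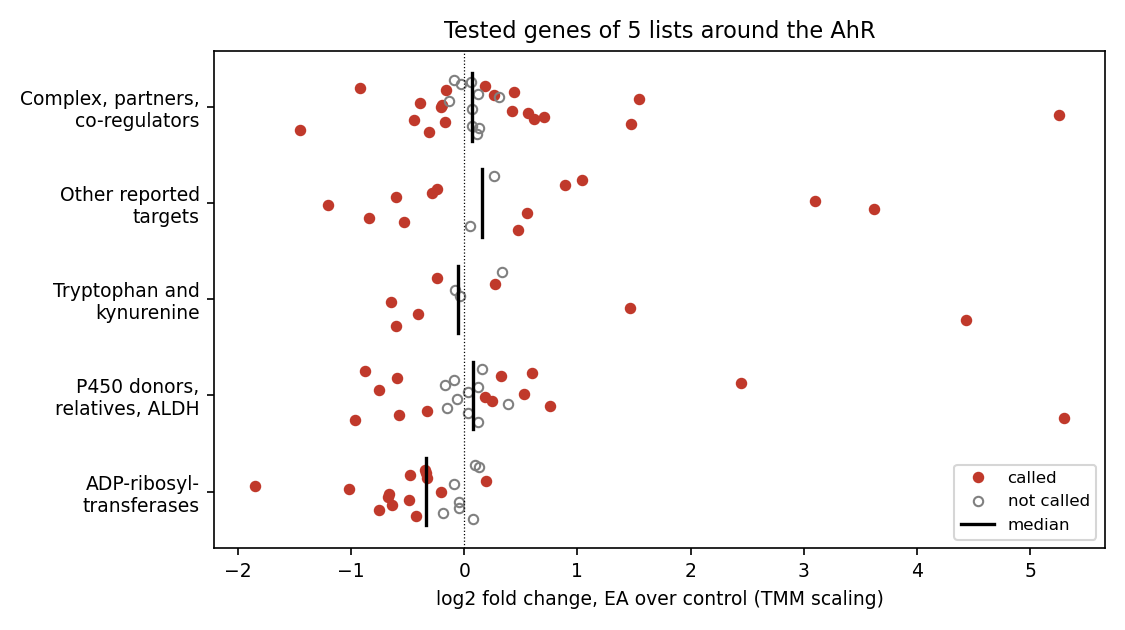
Log2 fold change of EA over control with TMM scaling for each tested gene of 5 lists around the AhR, red where called and open grey where not, with the median of a list as a black line. Most lists spread to both sides of 0, with Aldh1a1 at 5.30 as the highest value of the P450 and ALDH list, and 13 of the 14 called ADP-ribosylation genes lie under 0 with TMM scaling, as do all 21 with library totals alone.

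In the authors' annotation, 4 of the 8 genes, Cyp1a1, Cyp1b1, Aldh3a1 and Ugt1a6a, carry the pathway label for xenobiotic metabolism by cytochrome P450, a label picked after the values were seen. Of 72 genes with that label 30 were tested, and 8 were higher and 11 lower, with a median log2 fold change of −0.05. These counts include the 4 genes themselves, Cyp1b1 among the higher and the others among the lower. No count with library totals alone was made for this label. The 63.3% called lie near the 67.2% of all tested genes. Of the 30 tested, 2 reached the count filter through 1 group only, Ugt1a6a among them, and the counts were not remade without these.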

How the data were processed

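The deposited table holds the authors' read counts, a column for each library. Per the submitters' processing notes cutadapt 1.15, HISAT2 2.0.5 and build GRCm39 were used. Which program counted reads, whether by strand, and with which gene models is not given in the sources used here. FPKM from the authors stands in the same table, and recomputing 117047 of them from counts, gene length and column totals gave a largest relative deviation of 3.55e-14. Counts were tested in R 4.3.3 with edgeR 4.0.16 (TMM, the default count filter by group, robust quasi-likelihood F test, no covariates) over the whole table. The SE of a log2 fold change is its size over the square root of F. Single values were compared by exact permutation over 70 assignments, with 0.5 reads added in ratios and Benjamini-Hochberg adjustment over 10 measures, of which 2 ratios are printed without their p. Members, lists, markers and tests were chosen with earlier results of these data known. Named list genes were up to 3 rises and 3 falls per list among called genes whose average log2 CPM reached 1, and other genes were chosen after their values were seen. A gene that this rule names is not reported here. Alternatives were RLE, upper-quartile and no factors, 2 other filters, DESeq2 1.42.0, limma 3.58.1 (voom and log2 FPKM), a threshold of 0.01, a replicate block and leaving out each library. The steps were tested on simulated data. Intervals and limits at 0 reads (3 counts) cover counting error only. Figures were drawn with matplotlib 3.10.9.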

Additional observations from a re-analysis of the deposited data

Results flagged for a closer look

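The summed level of 12 macrophage markers had 1 library apart from the others in each group. EA library 4 was at 60.3 CPM, against 63.8 to 64.4 CPM in the other EA libraries, and control library 4 was at 60.6 CPM, against 74.0 to 75.5 CPM in the other control libraries. In both, the gap to the nearest library took up more of the range of the group than Dixon's 95% critical value allows. Chance flags about 1 in 20 groups, and 38 groups were checked. No AhR gene was flagged, the high Cyp1a1 value of control library 4 included.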

How the results depend on the processing

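All 150 values of the 8 AhR genes under the 19 alternatives kept their direction and stayed called, among them Cyp1a1 from −2.10 to −1.45 and Ahr from −4.11 to −3.08. Ahrr and Ugt1a6a passed the default filter only through the control libraries, so their values under it add nothing to this tally. The threshold of 0.01 reuses the values of the main fit. The value nearest to 0 for Ahr, −3.08, came from log2(FPKM + 1), where Ahrr was at −0.11 and Ugt1a6a at −0.29. The filter of CPM above 1 in all libraries gave no value for Ahrr, Ugt1a6a, Ugt1a6b and Ddc. Ugt1a6b was also not called on log2(FPKM + 1) (adjusted p = 0.0711, limma), on log2(FPKM + 0.1) (adjusted p = 0.0842, limma) or at the threshold of 0.01. Over all genes, called higher and lower were 1940 and 7196 with library totals, 1924 and 7170 on log2(FPKM + 1), and 1922 and 7179 on log2(FPKM + 0.1). For the receptor complex list these 3 settings gave 6 higher and 19 lower each, for other targets 3 higher, and for P450 and ALDH genes 4 higher and 15 lower. For ADP-ribosylation genes they gave 0 higher, and 21 lower with totals and 20 lower with FPKM. Upper-quartile factors gave 5 higher and 10 lower P450 and ALDH genes and 0 higher ADP-ribosylation genes, and RLE factors 2 higher ADP-ribosylation genes. An adjusted p under 0.01 left 4 lower receptor complex genes, 2 lower tryptophan genes, 5 higher P450 and ALDH genes and 0 higher ADP-ribosylation genes. Leaving out 1 library gave 5 to 8 lower receptor complex genes (5 without EA library 2), 5 to 9 higher P450 and ALDH genes (5 without EA library 1) and 0 to 2 higher ADP-ribosylation genes (0 without EA library 2 or 3, 2 without control library 4). The log2 fold change of Slc3a2 reversed to −0.089 with library totals and with both FPKM settings, and that of Parp3 to −0.17, −0.16 and −0.17. With upper-quartile factors Slc3a2 (0.12, adjusted p = 0.0716), Fgf21 (0.39, adjusted p = 0.0827) and Parp3 (0.033, adjusted p = 0.705) were no longer called. Without control library 4 the adjusted p (exact permutation) of the Ahr to Arnt ratio, the share of reads in AhR genes and the stromal and macrophage sums came to 0.0476. This is because more of the 10 measures then tied at the smallest possible p. The Ahr to Arnt difference itself was −3.46, smaller in size than the −3.52 of all libraries. Leaving out 1 library at a time, the differences ranged from −3.60 to −3.43 for Ahr to Arnt, 2.55 to 2.96 for Cyp1b1 to Cyp1a1, 2.32 to 2.76 for Tiparp to Cyp1a1, 0.0201 to 0.0311 percentage points for the share, 5105 to 5838 CPM for stromal and −11.7 to −6.71 CPM for macrophage markers. The stromal and macrophage differences are with TMM scaling. Apart from the tie at 0.0476, the cause of these changes was not tested.

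With the replicate block the AhR genes gave 2 higher and 6 lower, and all genes 3834 and 3960. Deviations of same-numbered libraries had correlations of 0.026, 0.023, 0.027 and −0.021, and those of differently numbered libraries ran from −0.105 to 0.097. Same-numbered libraries thus showed no shared deviation, which does not settle whether the samples were paired. Depth limits the precision of Ahrr and Ugt1a6a, with at most 7 and 3 reads in an EA library.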
